A study of Mus musculus with 4 samples.

Results

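The 41 genes described here act in G2 and mitosis. They encode Cdk1 and its cyclins, the mitotic kinases, the chromosomal passenger complex, kinetochore and spindle checkpoint proteins, spindle motors and the machinery of cytokinesis. They were chosen by symbol for these known roles, out of 31053 measured features, with earlier results of these data known. Counts of higher genes within the set are therefore not an independent test. Each of the 41 had reads in every library. The libraries came from mouse pituitary glands dissociated to single cells. Mice with transgenic overexpression of p25 (p25OE) were compared with their wild-type (WT) littermates at ages of 14 and 40 weeks. The kinase Cdk5 is activated by p35, of which p25 is a shorter fragment. Both genotypes carry the strain label C57BL/6- B6;CBA-BiTg mice. The promoter that drives p25, the sex of the animals and the number of glands per library are not given in the sources used here. Each of the 4 groups was 1 library. Differences between p25OE and WT therefore have no replicate check and no p-value, and genotype cannot be told apart from the library.

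Entry into mitosis is driven by the kinase Cdk1 bound to cyclin B, whose amounts build up through G2 and collapse in anaphase. Most of the genes listed here are transcribed together late in the cell cycle, through promoter elements read by the MuvB complex with B-Myb and Foxm1 and by the CCAAT-binding factor NF-Y. Endocrine cells of the adult pituitary divide rarely. Melanotrophs are the cells of the intermediate lobe that express the hormone precursor gene Pomc with the processing enzyme gene Pcsk2 and the transcription factor gene Pax7.

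RNA molecules were counted with unique molecular identifiers (UMIs), tags that mark each captured molecule. Values for the 4 libraries are given in the order WT and p25OE at 14 weeks, then WT and p25OE at 40 weeks. After barcodes with few genes or many mitochondrial UMIs were left out, 6579, 7667, 7927 and 7726 cells remained, with medians of 10778, 6340, 4940 and 6626 UMIs. The libraries of the same age shared 32 and 135 cell barcodes, and those of different ages 1 to 5. The 41 genes together took 85.4, 432, 60.6 and 1094 of each 1000000 UMIs in these cells. Both p25OE libraries were thus above both WT libraries, and the p25OE library at 40 weeks was the highest.

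Promoter windows from RefSeq (GRCm38.p6) were available for 35 of the 41 genes. They run from 250 bases before to 50 after the start of transcription, and the first base transcribed is counted as position +1. TTTGAA, or its variant TTCGAA, spells the cell cycle genes homology region, the element bound by MuvB complexes. Either stood on either strand in 26 of the 35 windows (74.3%), against 19.4% of the 27025 windows of all genes. Within 50 bases of the start they stood in 24 of the 35 (68.6%) and in 5.29% of all windows. CCAAT stood on either strand in 26 (74.3%) against 37.9%, and at least 2 copies of it in 19 (54.3%) against 12.2%. Both kinds of motif were present in 23 of the 35 (65.7%) and in 7.70% of all windows. The windows of Birc5, Mad2l1, Melk, Nuf2, Nusap1 and Tacc3 held neither. A match describes these letters only and does not show a bound site. The windows below are those of genes whose values recur in the results, printed 5′ to 3′ on the strand of the gene. Capitals mark these motifs or their reverse complements. Cdk1 lies at chr10:69352863-69353162, Ccnb2 at chr9:70421505-70421804, Cdc20 at chr4:118437294-118437593, Top2a at chr11:99024140-99024439 and Racgap1 at chr15:99651607-99651906, all on the minus strand, and Tacc3 at chr5:33657878-33658177 on the plus strand.
Cdk1: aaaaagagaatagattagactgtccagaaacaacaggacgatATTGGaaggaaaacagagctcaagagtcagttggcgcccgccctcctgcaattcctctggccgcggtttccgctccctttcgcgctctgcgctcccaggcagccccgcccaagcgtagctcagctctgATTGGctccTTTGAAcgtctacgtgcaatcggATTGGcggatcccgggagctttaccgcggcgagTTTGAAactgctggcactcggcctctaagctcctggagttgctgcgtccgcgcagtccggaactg
Ccnb2: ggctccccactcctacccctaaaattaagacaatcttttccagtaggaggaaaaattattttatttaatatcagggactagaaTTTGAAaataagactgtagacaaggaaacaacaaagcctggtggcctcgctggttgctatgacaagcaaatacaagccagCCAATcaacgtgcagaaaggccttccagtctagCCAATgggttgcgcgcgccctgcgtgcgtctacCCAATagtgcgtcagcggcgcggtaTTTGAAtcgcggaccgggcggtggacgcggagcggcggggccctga
Cdc20: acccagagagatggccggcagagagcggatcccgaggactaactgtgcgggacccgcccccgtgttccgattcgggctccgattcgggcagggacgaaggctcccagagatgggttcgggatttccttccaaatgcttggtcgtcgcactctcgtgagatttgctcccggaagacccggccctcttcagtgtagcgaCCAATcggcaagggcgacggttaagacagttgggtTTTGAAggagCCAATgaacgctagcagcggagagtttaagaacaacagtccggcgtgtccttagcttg
Top2a: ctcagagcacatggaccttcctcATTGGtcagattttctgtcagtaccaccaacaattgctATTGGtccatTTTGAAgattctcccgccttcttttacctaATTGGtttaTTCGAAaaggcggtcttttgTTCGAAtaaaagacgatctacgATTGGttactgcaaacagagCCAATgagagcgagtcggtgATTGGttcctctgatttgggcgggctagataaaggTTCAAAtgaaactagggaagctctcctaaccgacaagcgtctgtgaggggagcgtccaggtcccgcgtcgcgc
Racgap1: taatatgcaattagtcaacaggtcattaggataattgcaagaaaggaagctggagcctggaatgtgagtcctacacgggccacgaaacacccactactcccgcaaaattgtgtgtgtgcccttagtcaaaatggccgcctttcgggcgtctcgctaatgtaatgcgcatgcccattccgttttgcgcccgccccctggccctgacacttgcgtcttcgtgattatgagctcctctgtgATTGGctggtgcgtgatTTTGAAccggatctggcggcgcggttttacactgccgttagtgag
Tacc3: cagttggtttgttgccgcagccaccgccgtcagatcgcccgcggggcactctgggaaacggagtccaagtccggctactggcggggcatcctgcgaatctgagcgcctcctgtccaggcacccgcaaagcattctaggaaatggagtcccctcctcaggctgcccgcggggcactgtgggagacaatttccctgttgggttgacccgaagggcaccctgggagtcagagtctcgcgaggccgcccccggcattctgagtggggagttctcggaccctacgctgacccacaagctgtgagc
In the Cdk1 window, TTTGAA began at -71 and -15, and CCAAT stood on the opposite strand from -208, -80 and -48. Ccnb2 had CCAAT at -87, -54 and -21 and TTTGAA at -167 and 5, and Cdc20 had TTTGAA at -18 between copies of CCAAT at -53 and -8. Top2a had 6 copies of CCAAT and 4 of the MuvB element. Racgap1, whose values below stand apart from those of the other genes, also had both motifs close to its start, TTTGAA at 6 and CCAAT on the opposite strand from -12.

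The first comparison asked how far each gene differed between p25OE and WT over all kept cells. Levels are given as scaled CPM, UMIs per 1000000 after scaling by a size factor that sets the ratio of the median gene near 1. A gene counted as higher from 1.5-fold on, where the 2 libraries compared held at least 20 UMIs. Intervals of ratios and shares are exact at the 95% level and cover counting error only. The 41 genes together stood at 88.7, 372, 77.1 and 963 scaled CPM, and p25OE exceeded WT by 4.19-fold at the younger age (4.09 to 4.30) and by 12.5-fold at the older (12.0 to 13.0). At 14 weeks 40 of 41 genes were higher, where 14.7% of all genes tested were. At 40 weeks 41 of 41 were higher, where 23.1% of all genes were. The median ratio was 4.69 at 14 weeks and 15.8 at 40 weeks. The exception at 14 weeks was Racgap1, a subunit of the centralspindlin complex, with 19.1, 24.1, 19.2 and 39.0 scaled CPM and ratios of 1.26 (1.18 to 1.35) and 2.03 (1.87 to 2.20). At the other end at 14 weeks stood Cdk1 itself, at 1.66, 16.3, 1.17 and 33.0 scaled CPM, 9.80-fold higher (8.26 to 11.7) and then 28.1-fold higher (21.0 to 38.5). Ckap2l, a spindle protein, had the largest ratio at 40 weeks, 45.1 (24.4 to 94.4), from 0.255 to 11.5 scaled CPM. Cenpf and Top2a followed with 43.8 and 41.9. A plain CPM scaling moves the median of all genes by 0.27 (log2) at 14 weeks and 0.53 at 40 weeks, and left 0 of the 41 genes lower.

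Shares of cell types were unequal among the libraries, so the genes were read again within melanotroph-like cells. These were cells that passed a gate on Pcsk2, Pax7, Rbfox3 and Oacyl together and on Pomc, with none of the 41 genes in the gate. They numbered 522, 1569, 550 and 6297, which is 7.93%, 20.5%, 6.94% and 81.5% of the kept cells. The 10 genes that led this gate over the other cells included Oacyl, Pcsk2, Pax7, Rbfox3 and Pomc and no marker of another type. Within it the 41 genes together stood at 58.8, 529, 53.2 and 973 scaled CPM. The ratio of p25OE to WT was 9.0 (8.31 to 9.75) at the younger age and 18.3 (15.7 to 21.4) at the older. Each of the 41 genes was higher at both ages, where 18.0% and 20.2% of all genes tested were higher and 9.76% and 20.3% lower. The median ratio was 8.11 and 16.8, against 1.03 and 1.01 over all genes. The WT melanotroph-like cells at 40 weeks held only 165 UMIs of the set, and 11 of the 41 genes had 0. Their ratios are lower bounds that use a floor of 3 UMIs for the library, and the median of 16.8 includes them at that bound.

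**Figure D1:**
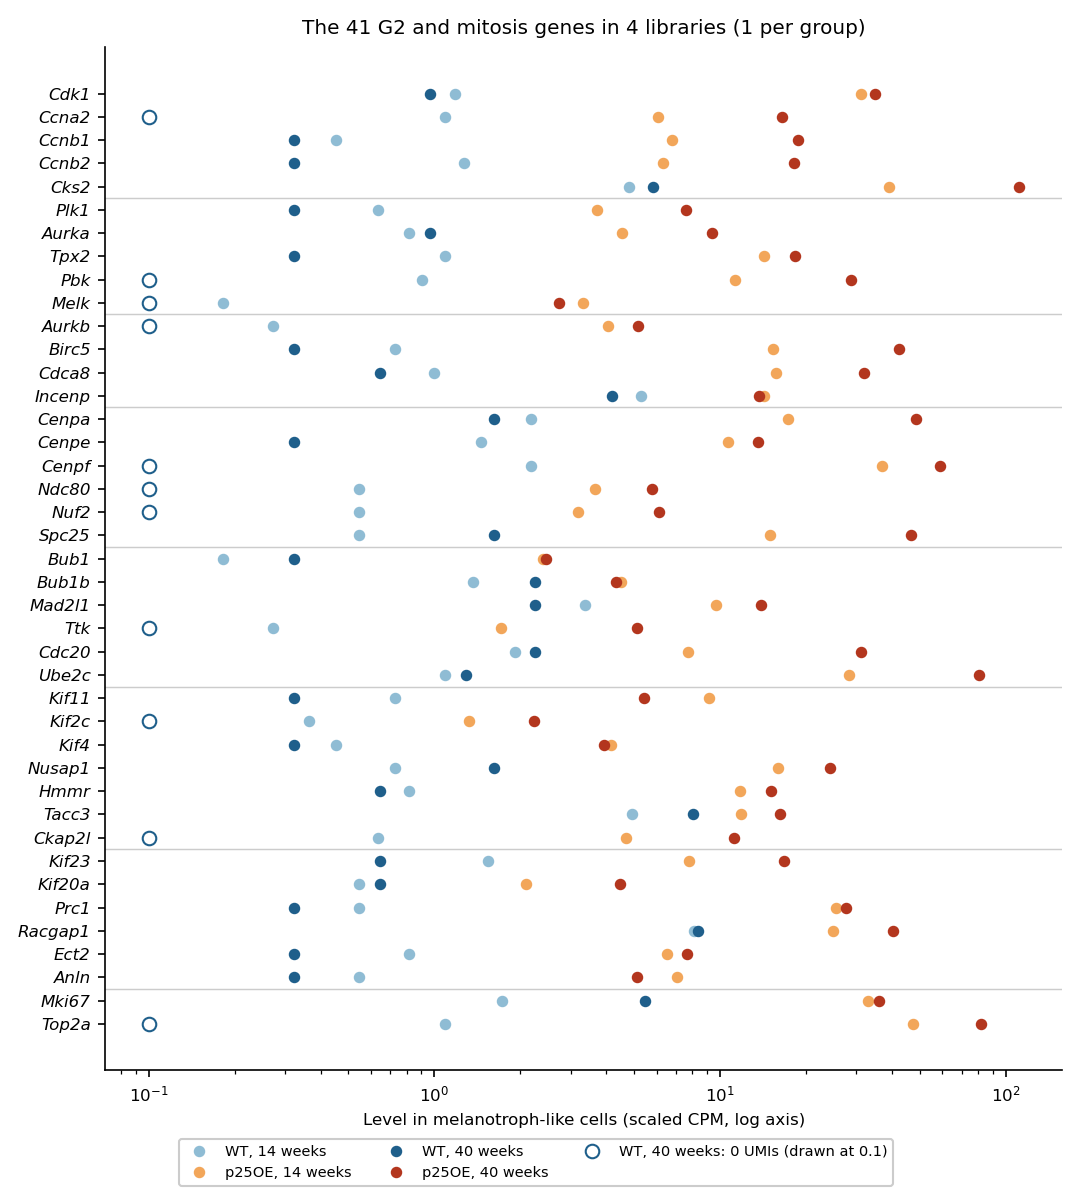
Level of each of the 41 genes in melanotroph-like cells, in scaled CPM on a log axis, 1 point per library and grey lines between role groups. Both p25OE points lie to the right of both WT points for every gene, and open circles mark the 11 genes with 0 UMIs in WT at 40 weeks.

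Cdk1 and its partners as a group had ratios of 10.1 (8.26 to 12.6) and 26.8 (17.9 to 42.4). Cks2 alone held 53 of the 97 WT UMIs of this group at 14 weeks and 18 of the 23 at 40 weeks. Cdk1, the mitotic kinase, stood at 1.18, 31.1, 0.967 and 34.8 scaled CPM in melanotroph-like cells. It was 26.3-fold higher (15.3 to 49.7) and 36.0-fold higher (12.3 to 175, on 3 UMIs in WT). The p25OE level of Cdk1 was thus nearly the same at both ages, while those of the cyclins were not. Ccnb1, which encodes cyclin B1, stood at 0.454, 6.78, 0.322 and 18.7, and Ccnb2, which encodes cyclin B2, at 1.27, 6.29, 0.322 and 18.1. Their ratios were 14.9 (6.25 to 46.7) and 4.95 (2.85 to 9.31) at 14 weeks. At 40 weeks, on 1 UMI of each in WT, they were 58.0 (10.4 to 2293) and 56.2 (10.1 to 2221). Ccna2, which encodes cyclin A2, went from 1.09 to 6.05 at 14 weeks, and from 0 UMIs to 16.5 at 40 weeks, at least 17-fold higher. Cks2, a small subunit that binds Cdk1, was the gene of the set with the most UMIs at 40 weeks. It stood at 4.81, 39.0, 5.80 and 111, 8.11-fold (6.14 to 10.9) and 19.1-fold (12.1 to 32.3) higher.

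Among the mitotic kinases and their partners, Tpx2, which activates Aurora A on spindle microtubules, stood at 1.09, 14.2, 0.322 and 18.4 scaled CPM. It was 13.1-fold higher (7.37 to 25.6) and 57.0-fold higher (10.2 to 2252, on 1 UMI in WT). Pbk, a mitotic kinase also called TOPK, went from 0.908 to 11.3 at 14 weeks, 12.4-fold (6.63 to 26.2), and from 0 UMIs to 28.8 at 40 weeks, at least 29.8-fold. Plk1, the Polo kinase of mitotic entry, was 5.83-fold (2.70 to 15) and 23.5-fold (4.2 to 932) higher. Aurka, the Aurora kinase of spindle poles, was 5.55-fold (2.80 to 12.5) and 9.68-fold (3.29 to 47.1) higher. Melk, a kinase of the AMPK family, rested on 2 UMIs in WT at 14 weeks, with a ratio of 18.3 (4.87 to 154). Its p25OE level did not follow the age pattern of the cyclins and was 3.32 at 14 weeks and 2.74 at 40 weeks.

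The chromosomal passenger complex places Aurora B on centromeres and then on the central spindle. Of its 4 subunits, Birc5 (survivin) stood at 0.726, 15.3, 0.322 and 42.2 scaled CPM. Its ratios were 21.1 (10.6 to 49.3) and 131 (23.5 to 5172, on 1 UMI in WT). Cdca8 (borealin) was 15.7-fold (8.64 to 31.7) and 49.5-fold (13.7 to 409) higher. Aurkb, the kinase, was 14.9-fold higher at 14 weeks (4.91 to 73.5, on 3 UMIs in WT) and at least 5.33-fold at 40 weeks. Incenp, the scaffold of the complex, differed least, with 5.27, 14.2, 4.19 and 13.7 scaled CPM and ratios of 2.70 (2.03 to 3.64) and 3.27 (1.90 to 6.17). Its WT level was the highest of the 4 subunits in UMIs, 58 at 14 weeks and 13 at 40 weeks.

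Centromere and kinetochore genes as a group had ratios of 11.6 (9.32 to 14.7) and, on 11 WT UMIs, 50.5 (28.2 to 101). Cenpf, a large protein of the outer kinetochore, stood at 2.18, 36.9, 0 and 58.7 scaled CPM. It was 16.9-fold higher (11.3 to 26.6) and at least 60.7-fold higher. Spc25, a subunit of the microtubule-binding Ndc80 complex, stood at 0.545, 14.9, 1.61 and 46.6, with ratios of 27.4 (12.4 to 75.2) and 28.9 (12.4 to 89.1). Cenpa, the histone variant that marks centromeres, was 7.92-fold (5.24 to 12.5) and 30.1-fold (12.9 to 92.8) higher. Cenpe, a kinetochore motor, was 7.32-fold (4.41 to 13.0) and, on 1 WT UMI, 42.1-fold (7.52 to 1663) higher. The other members of the Ndc80 complex had lower ratios, 6.72 (2.94 to 18.9) for Ndc80 and 5.82 (2.53 to 16.4) for Nuf2 at 14 weeks. At 40 weeks they were at least 5.99-fold and 6.32-fold higher.

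Spindle checkpoint and anaphase genes as a group had ratios of 6.64 (5.35 to 8.32) and 16.4 (11.2 to 25.1). Ube2c, the ubiquitin-conjugating enzyme of the anaphase promoting complex, stood at 1.09, 28.2, 1.29 and 80.4 scaled CPM. It was 25.9-fold (14.7 to 50.5) and 62.3-fold (24.3 to 229) higher. Cdc20, the activator of that complex, stood at 1.91, 7.71, 2.26 and 31.1, with ratios of 4.04 (2.56 to 6.71) and 13.8 (6.67 to 34.3). Checkpoint genes with enough WT UMIs had smaller ratios than Ube2c. Mad2l1, which inhibits Cdc20, was 2.89-fold (2.03 to 4.22) and 6.16-fold (2.98 to 15.4) higher. Bub1b, a part of the mitotic checkpoint complex, stood at 1.36, 4.49, 2.26 and 4.34. Its ratio was 3.295 at 14 weeks (1.90 to 6.13) and 1.92 at 40 weeks, where the interval of 0.919 to 4.83 includes 1. Bub1 and Ttk, checkpoint kinases, had at most 3 WT UMIs at either age, with ratios of 13.2 (3.45 to 112) and 6.27 (1.98 to 31.9) at 14 weeks. At 40 weeks Bub1 was 7.60-fold higher (1.34 to 302) and Ttk at least 5.27-fold higher.

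Spindle motors and spindle proteins as a group had ratios of 6.83 (5.54 to 8.51) and 7.13 (5.10 to 10.3). Tacc3 alone held 54 of the 95 WT UMIs of this group at 14 weeks and 25 of the 34 at 40 weeks. The group ratios therefore rest mostly on the WT level of Tacc3 and do not describe the other genes of the group. Nusap1, which bundles spindle microtubules, stood at 0.726, 16, 1.61 and 24.2 scaled CPM, 22.0-fold (11.0 to 51.4) and 15-fold (6.42 to 46.3) higher. Hmmr, a microtubule-associated protein, was 14.4-fold (7.45 to 31.8) and 23.4-fold (6.45 to 193) higher. Kif11, the motor that pushes spindle poles apart, stood at 0.726, 9.17, 0.322 and 5.41, with ratios of 12.6 (6.28 to 29.7) and 16.8 (2.99 to 665). The chromokinesin gene Kif4 was 9.13-fold (3.76 to 28.8) and 12.2-fold (2.16 to 482) higher, and Kif2c, a microtubule depolymerase, 3.63-fold (1.26 to 14.3) and at least 2.31-fold. Ckap2l was 7.37-fold (3.44 to 18.8) and at least 11.6-fold higher. Tacc3, which crosslinks microtubules of the spindle, stood at 4.90, 11.9, 8.06 and 16.2, the smallest ratio of the 41 genes at 14 weeks, 2.42 (1.79 to 3.31), and 2.01 (1.35 to 3.12) at 40 weeks. Its promoter window, printed above, holds neither motif, as do those of Birc5 and Nusap1, whose ratios at 14 weeks were 21.1 and 22.0.

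Among genes of the central spindle and cytokinesis, Prc1, the crosslinker of antiparallel microtubules, had the largest ratio of the 41 genes at 14 weeks. It stood at 0.545, 25.5, 0.322 and 27.5 scaled CPM, 46.7-fold (21.3 to 128) and 85.3-fold (15.3 to 3373, on 1 UMI in WT) higher. Racgap1 stood at 8.08, 24.8, 8.38 and 40.3, with ratios of 3.07 (2.44 to 3.89) and 4.80 (3.27 to 7.37). Its partner in centralspindlin, the motor gene Kif23, was 5.02-fold (3.04 to 8.84) and 25.9-fold (7.15 to 214) higher. Ect2, the exchange factor that activates RhoA at the cleavage furrow, was 8.0-fold (4.09 to 17.9) and 23.7-fold (4.23 to 938) higher. Anln, an actin-binding protein of the furrow, was 13.0-fold (5.82 to 36.0) and 15.9-fold (2.84 to 631) higher. Kif20a, a motor of the central spindle, was 3.85-fold (1.63 to 11.1) and 6.90-fold (1.89 to 57.3) higher.

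The last role group holds the common proliferation markers. Top2a, the topoisomerase that untangles sister chromatids, stood at 1.09, 47.4, 0 and 81.7 scaled CPM. It was 43.5-fold higher (24.8 to 84.5) and at least 84.6-fold higher. Mki67, which coats mitotic chromosomes, stood at 1.73, 33.0, 5.48 and 35.9, with ratios of 19.1 (12.2 to 32.0) and 6.55 (4.08 to 11.3). The p25OE levels of Mki67 were close to each other, and the lower ratio at 40 weeks came with a higher WT level. Under the 5 other scalings, gates and cell filters tried, none of the 41 ratios in melanotroph-like cells turned, and the lowest was 1.53 (Kif2c, 40 weeks).

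**Figure D2:**
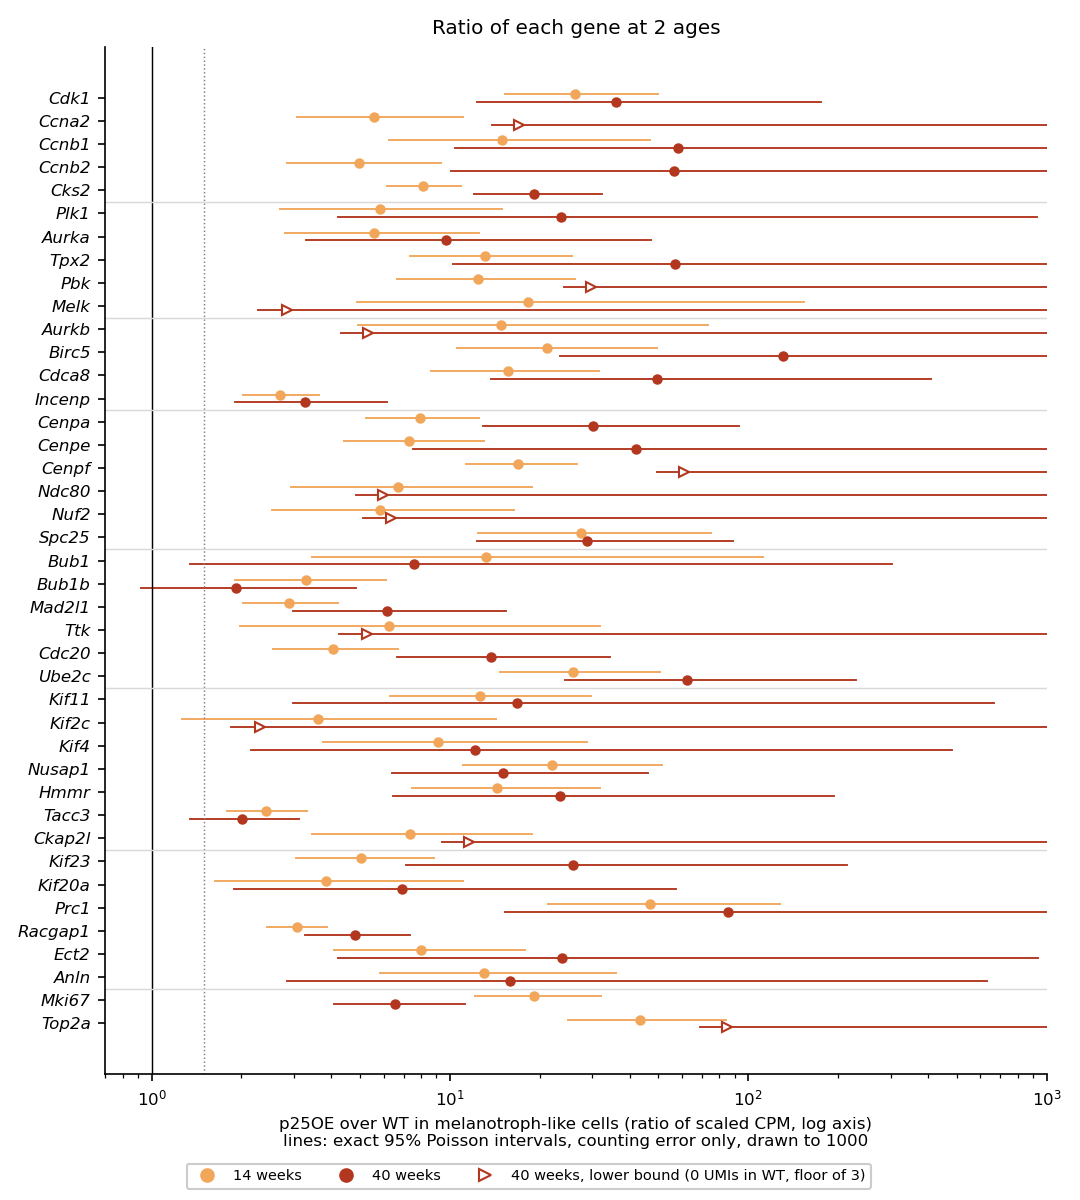
Ratio of p25OE over WT in melanotroph-like cells for each of the 41 genes on a log axis, at 14 weeks (orange) and 40 weeks (red), with exact 95% counting intervals drawn to 1000. Triangles are lower bounds for the 11 genes with 0 UMIs in WT at 40 weeks, the dotted line marks 1.5-fold, and only the interval of Bub1b at 40 weeks reaches 1.

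The same genes were read in cells outside the melanotroph gate. There, 40 of 41 were higher in p25OE at 14 weeks and 41 of 41 at 40 weeks, where 14.2% and 20.3% of all genes tested were. The ratio for the set was 3.67 (3.57 to 3.77) at the younger age and 21.9 (21.0 to 22.8) at the older. At 40 weeks 1083 of these 1371 p25OE cells passed no gate at all, against 2327 of 7318 in WT. Cells close to the limits of the melanotroph gate, described below, are among them. The 40-week ratio is therefore not one of other cell types alone. Somatotroph-like cells, gated on Gh and its lineage genes, held enough UMIs for 37 of the 41 genes at 14 weeks. Of these 35 were higher, where 9.19% of all genes were, and the set was 2.40-fold higher (2.28 to 2.54), against 9.0-fold in melanotroph-like cells. Macrophage-like cells, gated on C1q genes, Csf1r and other markers, serve below as a comparison class. Free RNA, doublets and division of macrophages cannot be told apart in them. Their level of the set was 144, 329, 83.7 and 1133 per 1000000 UMIs. The p25OE value at 40 weeks was no lower than the 984 per 1000000 of the melanotroph-like cells in that library. Barcodes left out by the cell filter held 806 per 1000000 UMIs in that library and 52.1 in WT of the same age. The part of free RNA in the differences was not tested.

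A level summed over cells does not say how many cells carry the genes. Each cell was therefore thinned to 1000 UMIs, so that depth was equal, and counted as carrying the set when UMIs of at least 2 of the 41 genes remained. Such cells numbered 49 of 6502, 294 of 7562, 31 of 7909 and 840 of 7510. The shares were 0.754% (0.558 to 0.995), 3.89% (3.46 to 4.35), 0.392% (0.266 to 0.556) and 11.2% (10.5 to 11.9). The p25OE share was 5.16-fold the WT share in the younger animals (3.8 to 7.13) and 28.5-fold in the older (19.95 to 42.3). Without thinning the shares were 13.5%, 24.8%, 4.16% and 63.2%, since deeper cells yield more genes. Of single genes, Cks2 was found in the most cells of the p25OE library at 40 weeks after thinning, 712 of 7510 (9.48%), against 51 of 7909 WT cells (0.645%). Top2a was found in 427 (5.69%) and 12 (0.152%), and Ube2c in 391 (5.21%) and 16 (0.202%). Bub1 was found in 14 (0.186%) of those p25OE cells and in 0 WT cells at that depth, where a floor of 3 cells is 0.0379%, although that WT library held 7 UMIs of Bub1 before thinning.

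By class, 2 of 521 melanotroph-like cells carried the set in WT at 14 weeks, or 0.384% (0.0465 to 1.38), and 84 of 1565 did in p25OE, or 5.37% (4.30 to 6.60). At 40 weeks 0 of 550 WT cells did, which allows a share of up to 0.545% by a floor of 3 cells, and 630 of 6241 p25OE cells did, or 10.1% (9.36 to 10.9). The ratio was 14.0 at 14 weeks (3.75 to 117) and at least 18.5 at 40 weeks by the same floor. Macrophage-like cells, the comparison class, gave 0.535% (0.110 to 1.55), 2.97% (1.85 to 4.5), 1.12% (0.485 to 2.20) and 9.03% (5.03 to 14.7, 14 of 155 cells). Their median depths before thinning were 3492, 3259, 2235 and 3122 UMIs, against 17412, 9042, 7216 and 7296 in melanotroph-like cells. At 14 weeks the interval of the melanotroph-like share in p25OE overlaps the macrophage-like one at its end, and at 40 weeks it lies within it. With at least 5 of the 41 genes required, the p25OE shares at 14 weeks were 1.60% in melanotroph-like cells (1.04 to 2.35) and 1.27% in macrophage-like cells (0.584 to 2.40). Those at 40 weeks were 3.73% (3.28 to 4.23) and 3.87% (1.43 to 8.23). The melanotroph-like shares in p25OE are therefore not separated from this background at 40 weeks, and at 14 weeks not with the stricter count.

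Shares also differed among the hormone-producing cells of the anterior lobe in p25OE at 14 weeks. Somatotroph-like cells carried the set in 1.34% (0.753 to 2.21; WT 0.448%), and lactotroph-like cells, gated on Prl and lineage genes, in 1.88% (1.10 to 3.0; WT 0.374%). Neither interval overlaps the melanotroph-like one of 4.30 to 6.60, but with at least 3 of the 41 genes required all of these intervals overlap. The shares were then 2.30% (1.62 to 3.17) in melanotroph-like, 1.25% (0.687 to 2.09) in somatotroph-like and 1.55% (0.85 to 2.59) in lactotroph-like cells. Thyrotroph-like cells stood at 6.35% (1.76 to 15.5) on 4 of 63 cells with at least 2 genes. Corticotroph-like and stem-like cells carried it in 1.01% (0.327 to 2.33) and 1.33% (0.432 to 3.07). At 40 weeks the p25OE library held few such cells, and 0 of 51 somatotroph-like and 1 of 38 lactotroph-like cells carried it. By a floor of 3 cells, the first count allows a share of up to 5.88%. In WT, cells that passed no gate made up 17 of the 49 carrying cells at 14 weeks and 9 of 31 at 40 weeks. T or NK-like cells made up 10 of 49 at 14 weeks and macrophage-like cells 8 of 31 at 40 weeks. Melanotroph-like cells, 7.93% and 6.94% of the kept WT cells, made up 2 and 0. In p25OE, melanotroph-like cells made up 84 of 294 (28.6%) at 14 weeks and 630 of 840 (75.0%) at 40 weeks, close to their 81.5% of the kept cells there.

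**Figure D3:**
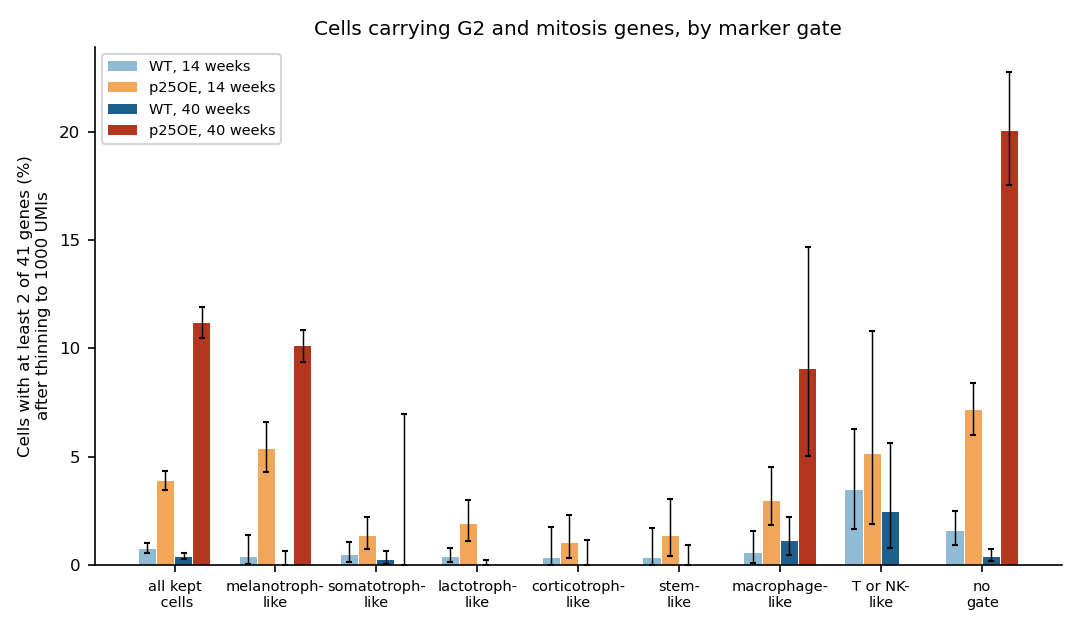
Share of cells, in percent, with UMIs of at least 2 of the 41 genes after thinning to 1000 UMIs, by marker gate and library, with exact 95% binomial intervals. Classes with under 50 cells in a library have no bar there and 0% shows as an interval alone, and the p25OE shares are highest in cells that passed no gate, 7.14% at 14 weeks and 20.1% at 40 weeks.

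Cells that passed no gate carried the set most often in p25OE. They gave 1.57% (0.916 to 2.50), 7.14% (6.01 to 8.42), 0.389% (0.178 to 0.737) and 20.1% (17.5 to 22.8), and they held 131 of the 294 and 187 of the 840 carrying p25OE cells. At 40 weeks these 187 cells had a median of 7.99 UMIs per 10000 of the melanotroph markers, where the gate asks for 8, and Pomc took a median of 2.89% of their UMIs, where it asks for 1%. At 14 weeks the 131 cells had medians of 1.46 per 10000 and 0.367%. Their median depths were 3853 and 3274 UMIs, under those of gated melanotroph-like cells. Within the melanotroph gate, carrying cells had less Pomc. In p25OE at 14 weeks Pomc took a median of 8.37% of UMIs in the 84 carrying cells, 12.6% in cells with 1 of the genes and 15.4% in cells with none. At 40 weeks the medians were 4.44%, 6.70% and 8.19%. The marker genes of the gate were also lower in carrying cells at 40 weeks, at medians of 20.8, 29.0 and 31.7 per 10000, and at 14 weeks at 23.6, 26.6 and 25.3. Macrophage markers had medians of at most 0.869 per 10000 in all of these melanotroph-like groups. Carrying cells were somewhat deeper than those with none, with medians of 10335 against 9030 UMIs at 14 weeks and 7871 against 7402 at 40 weeks. The part of depth in these differences was not tested.

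The genes lay together in the same cells. A core cell was defined, without thinning, as one with UMIs of at least 3 of the 41 genes, and for each gene the share of its UMIs in cells with at least 3 of the other 40 was taken. The median share over genes was 62.3%, 87.1%, 37.4% and 89.4%. In WT at 40 weeks it covers only the 30 genes with at least 20 UMIs there, and in each other library all 41. Core cells held 9.39%, 22.1%, 1.32% and 59.9% of all UMIs, so the shares were far above this in the first 3 libraries and less so in p25OE at 40 weeks. In WT at 14 weeks Pbk had 95.4% of its UMIs (88.6 to 98.7) in such cells, Hmmr 95.4%, Birc5 93.2% and Bub1 90.3%. At the other end stood Racgap1 with 11.3% (9.87 to 13.0), Mad2l1 with 17.2%, Incenp with 18.03% and Tacc3 with 26.1%. Racgap1 had 1692 UMIs in that library, more than any other of the 41 genes. Cells with at least 3 of the other 40 genes were 2.86% of kept cells for Racgap1, and core cells 4.73%. The 9.39% of all UMIs belongs to core cells and is therefore not the measure for the 11.3% of Racgap1. In p25OE at 14 weeks Racgap1 was again the lowest, at 40.4%, while Bub1 was the highest, at 97.1%. At 40 weeks in p25OE the range narrowed to 76.7% (Cks2) through 94.1% (Ccnb2).

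**Figure D4:**
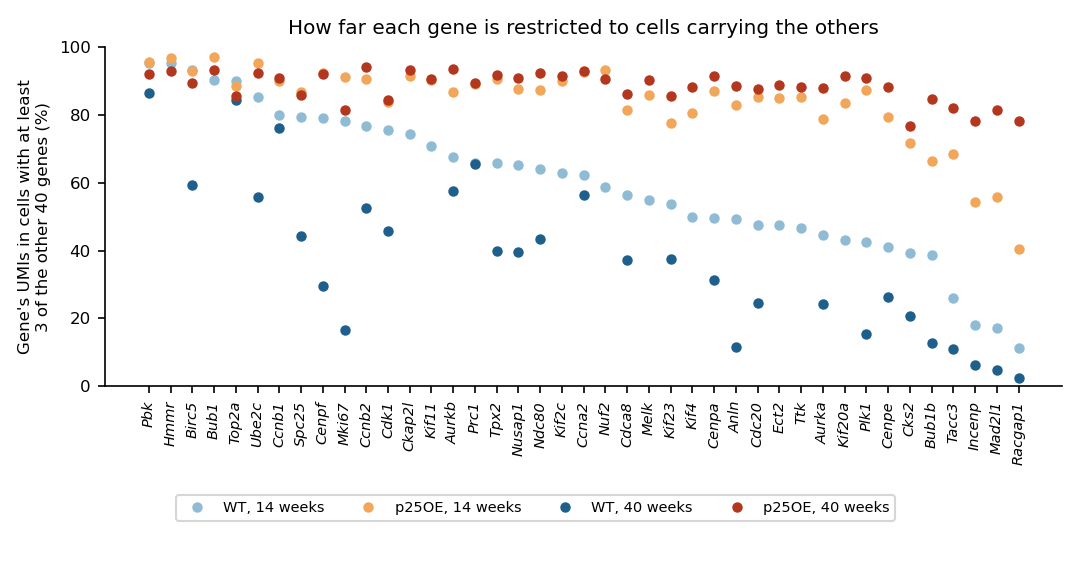
For each of the 41 genes, the percentage of its UMIs that lay in cells with UMIs of at least 3 of the other 40 genes, 1 point per library, ordered by WT at 14 weeks, with no point for genes under 20 UMIs in a library. Racgap1, Mad2l1, Incenp and Tacc3 are lowest in WT, from 11.3% to 26.1% at 14 weeks.

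Genes with less of their WT signal in core cells had smaller median ratios, and at 14 weeks both measures use the same WT library. The 26 genes with at least 50% of their WT UMIs in core cells at 14 weeks had a median ratio of 14.6 in melanotroph-like cells (3.63 to 46.7), and the other 15 a median of 5.55 (2.42 to 13.0). At 40 weeks, where another WT library enters the ratio, the medians were 24.6 (2.31 to 131) and 9.68 (1.92 to 42.1). The 11 genes with 0 WT UMIs enter these medians at their lower bounds, and all of them but Ttk are among the 26. The low end of 2.31 (Kif2c) is such a bound. Ranges in parentheses are over genes and overlap. Outside core cells, Top2a stood at 0.336, 4.54, 0.224 and 28.6 per 1000000 UMIs, and Cks2 at 3.17, 9.81, 4.27 and 59.6. The p25OE library at 40 weeks thus held more UMIs of these genes than the other libraries also in cells with few others of the set. At least 20 of the 41 genes were found in 22, 98, 6 and 304 single cells. A single cell held at most 40 and 34 of them in the WT libraries and all 41 in each p25OE library.

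Cells that carried the set also carried S phase genes more often. After thinning, at least 2 of 19 S phase genes such as Pcna, Rrm2 and Tyms were found in 24.5% (13.3 to 38.9), 36.7% (31.2 to 42.5), 29.0% (14.2 to 48.0) and 35.1% (31.9 to 38.5) of the carrying cells. In cells with none of the 41 genes they were found in 1.60%, 4.69%, 1.38% and 14.5%. The intervals for carrying cells overlap, but those of WT are wide, on 12 of 49 and 9 of 31 cells. The share in cells with none of the 41 genes was highest in p25OE at 40 weeks.

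The proportions of the genes among themselves were then compared between the ages, in melanotroph-like core cells of p25OE (521 cells with 9889 UMIs of the set at 14 weeks and 3046 with 49592 at 40 weeks). Of the 41 genes, 6 took a share at least 1.5-fold higher at 40 weeks, 13 a share at least 1.5-fold lower, and 22 lay within. Cdc20, the activator of anaphase, took 1.41% at 14 weeks and 3.21% at 40 weeks, 2.29-fold more (1.92 to 2.74). Ttk, Spc25, Cks2, Cenpa and Ube2c took 1.72-fold, 1.67-fold, 1.55-fold, 1.53-fold and 1.503-fold more. Kif11 took 1.79% and 0.567%, a ratio of 0.317 (0.261 to 0.384). Anln, Melk, Kif4, Bub1, Bub1b, Mki67, Prc1 and Cdk1 followed at 0.411, 0.436, 0.499, 0.532, 0.561, 0.572, 0.583 and 0.601, and Incenp, Ect2, Hmmr and Cenpe at 0.608 to 0.664. By role, the checkpoint and anaphase genes took 10.3% and 14.4%, a ratio of 1.40 (1.31 to 1.49). Spindle motors took 11.3% and 8.20%, a ratio of 0.724 (0.678 to 0.774). Cyclins B1, B2 and A2 each took 1.47-fold to 1.499-fold more while Cdk1 took less. Over all kept WT cells, which are mostly not core cells, the ratios of these cyclins and of Cdk1 lay at 0.720 to 0.812. Each had an interval that includes 1.

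In WT the share was read over all kept cells, since only 46 and 3 WT melanotroph-like cells were core cells. Core cells held 57.1% of the WT UMIs of the set at 14 weeks and 28.9% at 40 weeks. The WT ratios therefore mix the proportions in core cells with signal outside them, unlike the p25OE ratios. Of the 13 genes with a lower share in p25OE at 40 weeks, 9 had a WT ratio under 1 as well, and of the 6 with a higher share, 2 did, where 22 of all 41 genes did. Kif11 was lower in both genotypes, at 0.465 in WT (0.270 to 0.763), and so was Prc1, at 0.419 (0.266 to 0.637). Cdc20 was not, at 1.01 in WT (0.766 to 1.32), and Mki67, at 1.13 (0.926 to 1.38), and Melk, at 1.30 (0.543 to 2.91), were not lower there. Over all kept p25OE cells the ratios of Kif11, Prc1, Cdc20, Mki67 and Melk were 0.342, 0.626, 1.53, 0.615 and 0.549. The ages differ in their set of cell barcodes as well as in library, so age cannot be told apart from the preparation.

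**Figure D5:**
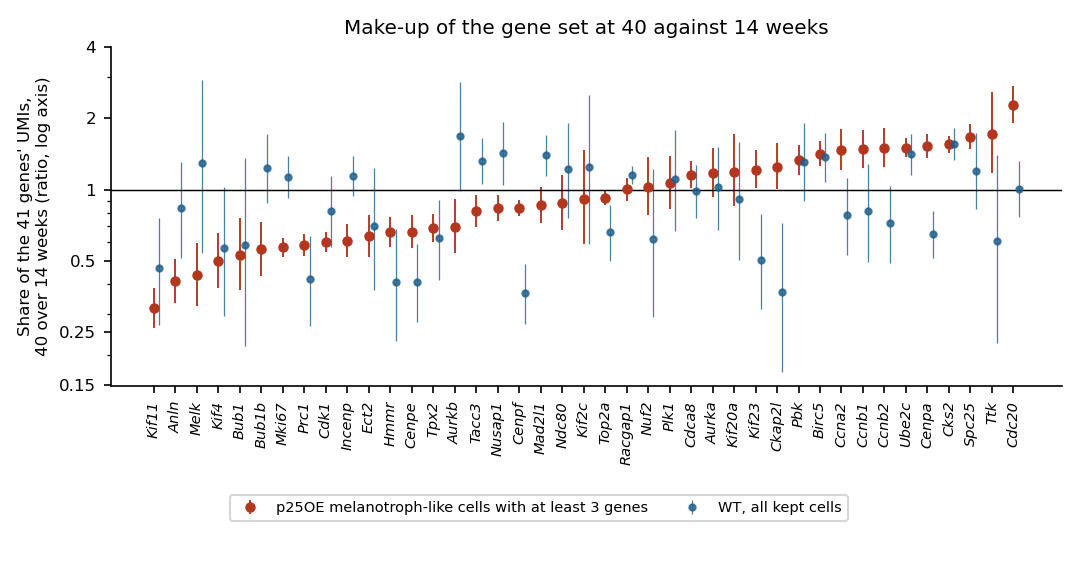
Ratio of each gene's share of the 41 genes' UMIs at 40 over 14 weeks, on a log axis with 95% counting intervals, in p25OE melanotroph-like core cells (red) and in all kept WT cells (blue). Red points run from 0.317 for Kif11 to 2.29 for Cdc20, and many WT intervals include 1.

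Other genes of the same processes were read in melanotroph-like cells from 9 lists, with 1.5-fold as the limit. Over all genes tested in these cells, 18.0% were higher at 14 weeks and 20.2% at 40 weeks, and the counts below stand beside those shares. Condensin, which compacts chromosomes, was higher in 7 of 8 genes at both ages. Ncaph went from 0.363 to 4.68 scaled CPM at 14 weeks, 12.9-fold (4.88 to 48.3), and Smc4 from 19.3 to 97.8 at 40 weeks, 5.06-fold (3.92 to 6.64). Of 21 further kinetochore genes, 17 and 18 were higher, among them Cenpk at 40 weeks, 11.6-fold (5.33 to 31.8). Zwint, a kinetochore scaffold, was between the limits and lower in value, 277 against 190 scaled CPM at 14 weeks. S phase genes were higher in 18 and 19 of 19, and Uhrf1, which maintains DNA methylation at replication, was 30.4-fold higher at 14 weeks (8.21 to 254, on 2 UMIs in WT). Spindle pole and centrosome genes were higher in 11 and 9 of 13. Cohesin and anaphase genes were higher in 8 and 7 of 14, with Cdca5 (sororin), which protects cohesion, 26.5-fold higher at 40 weeks (4.73 to 1047, on 1 UMI in WT). In that list Pttg1, the securin that anaphase destroys, was the 1 gene lower, at 61.8, 37.1, 91.8 and 34.0 scaled CPM.

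Regulators were read in the same way. Of 14 regulators of Cdk1, 10 were higher at both ages. These included inhibitors, Cdkn1a (p21) at 7.35 and 55.9 scaled CPM at 14 weeks and Cdkn1c (p57) at 9.67 and 100.4 at 40 weeks, beside Cdc25c, the activating phosphatase, 5.01-fold at 14 weeks (1.55 to 25.8, on 3 UMIs in WT). Of 17 subunits and partners of the anaphase promoting complex, 2 and 5 were higher, near the share over all genes. Fbxo5 (Emi1), its inhibitor, was higher at both ages, 2.77-fold (1.91 to 4.12) and 8.06-fold (3.13 to 29.7). Subunit genes lay on both sides of WT. At 14 weeks Anapc15 was 2.63-fold higher (2.10 to 3.33), and Cdc26 and Anapc1 stood at 0.852 and 0.904 of WT. At 40 weeks Anapc16 was 2.18-fold higher (1.89 to 2.54), and Cdc27 and Anapc4 stood at 0.761 and 0.791. Of 13 genes for MuvB, Myb, Foxm1 and E2F partners, 3 and 4 were higher and 0 and 1 lower, also near the share over all genes. With plain CPM 5 and 9 of the 13 were higher, where 25.6% and 37.5% of all genes were. Foxm1, which activates late cell cycle genes, stood at 0.363, 4.29, 0.322 and 4.66 scaled CPM, 11.8-fold (4.46 to 44.3) and 14.5-fold (2.57 to 574, on 1 UMI in WT) higher. Lin52, a subunit of MuvB, was lower at 40 weeks, with 15.8 in WT and 10.3 in p25OE. Lin9, another subunit, was 2.86-fold higher at 14 weeks (1.97 to 4.26). In the cytokinesis list 5 of 13 genes were higher at both ages, with Kif20b 32.1-fold at 40 weeks (5.74 to 1270, on 1 UMI in WT), while Chmp2a, a subunit of the membrane-cutting ESCRT-III complex, stood at 0.820 and 0.766 of WT.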

How the data were processed

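Single pituitary cells of 4 mouse libraries, 1 per genotype and age, were measured. The deposited values are UMI counts, whole numbers per gene and barcode, made by the authors with Cell Ranger 3.0.2 on mm10, per the submitters' processing notes, while the file headers give version 3.0.1. Papain (5 min, 37 °C) freed the cells and a 10x 3′ v2 kit made the libraries, per the labels' protocols, so counts were not divided by gene length. The labels name this kit for all samples, but libraries of different ages shared only 1 to 5 barcodes. Whether both ages used the same kit version was not tested. The counts served in the present work as follows. Barcodes with at least 500 genes and at most 20% mitochondrial UMIs were kept (73.8%, 51.1%, 65.8% and 95.1%). No clustering was run. A cell entered a class when its markers, as UMIs per 10000, passed a limit set after their distribution was seen. The melanotroph-like gate asked for 8 per 10000 over Pcsk2, Pax7, Rbfox3 and Oacyl with 2 of them detected, and 100 per 10000 of Pomc. At doubled limits 43, 314, 155 and 1333 of its cells would leave it. Cells passing several gates (241, 192, 338 and 59) were put in no class. No doublet caller was run, and leaving out the 5% of cells with the most UMIs was an alternative.

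UMIs were summed per class and library. Libraries were scaled by median-of-ratios size factors, taken over genes that reached 20 UMIs in every library. Ratio intervals come from 2 Poisson counts and shares carry Clopper-Pearson intervals. PCR and capture are not covered. For shares of cells, each cell was thinned to 1000 UMIs, and 77, 105, 18 and 216 shallower cells were left out. The ratio and thinning code was tested on simulated counts. All 41 genes are named by role, and from each pathway list up to 2 genes with the highest and 2 with the lowest ratio. The genes, markers and lists were chosen with earlier results of these data known. 3 septin symbols of 1 list were read under older names. Other scalings, filters, depths and limits were tried as alternatives. Python 3.11.15 with NumPy 2.4.6, SciPy 1.17.1 and pandas 2.3.3 was used.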

Additional observations from a re-analysis of the deposited data

Results flagged for a closer look

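UMIs of the 41 genes also lay in barcodes that the cell filter had left out, and in the p25OE libraries this was above the level of the WT libraries of the same age. In p25OE the left-out barcodes held 260 UMIs of the set per 1000000 (248 to 272) at 14 weeks and 806 (708 to 914) at 40 weeks. In WT they held 78.7 (69.4 to 88.8) and 52.1 (45.1 to 59.8). The p25OE values were lower than the 432 and 1094 per 1000000 of the kept cells of the same libraries. The 40-week value rests on 244 UMIs in 399 barcodes, the 14-week value on 1780 UMIs in 7351.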

How the results depend on the processing

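No paired analysis was possible because each group was 1 library, and for the same reason no replicate could be left out. Of the alternatives tried, 0 turned a direction. Counts of higher genes stayed within 39 to 41 of 41, or 38 of 38 where at least 50 UMIs were asked for in melanotroph-like cells at 14 weeks, including with a stricter melanotroph gate and a limit of 2-fold. Over all kept cells, plain CPM gave the set ratios of 5.07 at 14 weeks and 18.04 at 40 weeks. A filter of at least 1000 genes and at most 10% mitochondrial UMIs gave 4.39 at 14 weeks, and leaving out the 5% of cells with the most UMIs gave 3.67. The share of carrying cells moved with depth and with the number of genes asked for. With 2000 UMIs per cell it was 1.355%, 6.60%, 0.854% and 23.0%, without thinning 13.5%, 24.8%, 4.16% and 63.2%, and with at least 3 genes 0.523%, 2.37%, 0.253% and 6.498%. Without thinning the ratio of these shares was 1.84 at 14 weeks and 15.2 at 40 weeks. In melanotroph-like cells, 2000 UMIs gave 10.9% and 22.4% in p25OE, no thinning gave 19.3%, 49.8%, 4.73% and 68.0% with ratios of 2.57 and 14.4, and at least 3 genes gave 2.30% and 5.56% in p25OE. The stricter gate gave 8.27% in p25OE at 40 weeks. A core of at least 5 other genes gave a median co-detection of 81.4% in p25OE at 40 weeks. With plain CPM 5 and 9 of the 13 MuvB, Myb and Foxm1 genes were higher. Both promoter motifs stood on the strand of the gene itself in 13 of the 35 windows, against 2.60% of all windows. Depth and the number of genes asked for change these values by construction. The cause of the other shifts was not tested. WT melanotroph-like cells at 40 weeks held 165 UMIs of the set, which limits the melanotroph-like ratios at that age.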

Other observations

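Some small classes also held carrying cells in p25OE at 14 weeks. Of the thyrotroph-like cells, gated on Tshb, Trhr and Dio2, 4 of 63 carried at least 2 of the 41 genes after thinning, or 6.35% (1.76 to 15.5). Of the endothelial-like cells, 4 of 58 did, or 6.90% (1.91 to 16.7). Gonadotroph-like cells did in 0 of 84, which allows a share of up to 3.57% by a floor of 3 cells. T or NK-like cells carried the set in 3.46% (1.67 to 6.27) in WT and 5.13% (1.90 to 10.8) in p25OE at 14 weeks, a ratio of 1.48 (0.443 to 4.5), and in 2.46% in WT at 40 weeks. The top 1% of cells by UMIs of the set held 45.8%, 60.3%, 31.2% and 28.0% of these UMIs in the 4 libraries, and 60.1%, 49.8%, 77.1% and 16.6% of kept cells held none.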
